A study of Mus musculus with 39 samples.

Results

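The killer cell lectin-like receptor genes followed here are 10 mouse genes, Klra1, Klra3, Klra9, Klrb1a, Klrb1c, Klrc1, Klrd1, Klrk1, Klre1 and Klrg1, taken by symbol from tables of 28023 genes. They are 10 of 30 symbols in those tables that begin with Klr, and all 10 passed the filter on low values in both sets of libraries. The levels are TPM, the share of a library's transcripts after allowing for their length, which lets the genes be set against each other.

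All mice were C57BL/6, with the genotype labelled WT, and all carried subcutaneous MCA-205 tumours, a fibrosarcoma line syngeneic with that strain. All had received faecal microbiota (FMT) from stools of human volunteers after 6 days of exposure to CZA+DAV132 or to CZA alone, 2 weeks before the graft of 800000 tumour cells. DAV132 is a colon-targeted adsorbent, and CZA is named in the labels by its abbreviation alone. From a tumour size of 25 to 35 mm2, the mice were given 4 intraperitoneal injections, every 3 days, of 250 µg of the anti-PD-1 antibody RMP1-14 or of its isotype control 2A3, and tumours were taken 2 days after the last of them. The 4 groups were therefore CZA+DAV132 with anti-PD-1, CZA+DAV132 with isotype, CZA with anti-PD-1 and CZA with isotype. Sorted CD8+ T cells from tumours gave 5 libraries for each group, numbered 16 to 20, 11 to 15, 6 to 10 and 1 to 5 in that order. They came from a repeat of an experiment that gave libraries labelled bulk tumour, with 5, 4, 5 and 5 libraries in the same order. The labels do not tie libraries to separate mice, so the spread behind each p-value is that between libraries and may be technical. Nor do they give replicate transplants, so a difference between arms cannot be told apart from a difference between transplants.

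Depth is unknown, since the files hold TPM without counts. In the sorted cells, Cd8a stood at 86.7 to 403 TPM and Cd4 at 0.418 to 2.32 TPM. In the libraries labelled bulk tumour, Cd8a stood at 141 to 423 TPM and Cd4 at 0.116 to 6.58 TPM. Of these, the group medians of 8 summed fibroblast and sarcoma markers were 600.0 to 760 TPM and those of 12 summed T cell markers 7675 to 10920 TPM. The T cell markers thus outweighed the fibroblast and sarcoma markers, and the libraries are called by their label. Among the sorted libraries, 17 repeat-derived entries took 68.7% of all TPM in library 19 and 29.2% in library 16, both of CZA+DAV132 with anti-PD-1. They took 28.7% ± 23.3 over CZA+DAV132 with anti-PD-1, 4.37% ± 2.68 over CZA+DAV132 with isotype, 9.43% ± 4.87 over CZA with anti-PD-1 and 9.59% ± 10.1 over CZA with isotype (SD, n = 5 each). TPM values add up to a fixed total, so a larger share for these entries leaves less for other genes. Counts and calls in the CZA+DAV132 arm of the sorted cells are therefore also given without libraries 16 and 19 where they change.

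These receptors are C-type lectin-like proteins of natural killer cells, and CD8+ T cells can also carry them after activation. Most of the inhibitory ones bind MHC class I molecules and restrain killing through phosphatases. Among them are many Ly49 proteins of the Klra genes and the CD94/NKG2A pair. Activating ones, such as NKG2D, have no signalling motif of their own and work through small adaptor proteins.

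In GRCm38, 29 of the 30 genes with a Klr symbol lay on chromosome 6 within 8.98 Mb, from 122270596 to 131247362, the natural killer gene complex. Klrg1 (ENSMUSG00000030114) lay at chr6:122270596-122282882 on the minus strand, apart from the rest. Klrb1a (ENSMUSG00000030361) lay at chr6:128609227-128623533 and Klrb1c (ENSMUSG00000030325) at chr6:128778485-128789215, both on the minus strand. Klre1 (ENSMUSG00000050241) at chr6:129577905-129585827 and Klrd1 (ENSMUSG00000030165) at chr6:129591782-129598775 lay side by side on the plus strand. Klrk1 (ENSMUSG00000030149) followed at chr6:129610323-129623864 and Klrc1 (ENSMUSG00000030167) at chr6:129666015-129678973, on the minus strand. Klra9 (ENSMUSG00000033024) lay at chr6:130178675-130193112, Klra3 (ENSMUSG00000067591) at chr6:130323289-130337574 and Klra1 (ENSMUSG00000079853) at chr6:130363917-130386874, all on the minus strand.

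Promoter sequences from RefSeq (GRCm38.p6), each running from 250 bases before to 50 bases after the RefSeq start, were matched for 8 of the 10 genes. Those of the 5 Klra and Klrb1 genes, which were lower together under anti-PD-1 in the sorted cells, and of Klrk1 for comparison, are shown 5′ to 3′ on the strand of the gene. Capitals mark matches to the motifs searched on either strand, TGTGGT (Runx), GGTGTG (a T-box motif) and ACCGGAAG (ETS). The Runx and T-box letters can overlap each other, but no matches overlapped in these promoters.
Klra1: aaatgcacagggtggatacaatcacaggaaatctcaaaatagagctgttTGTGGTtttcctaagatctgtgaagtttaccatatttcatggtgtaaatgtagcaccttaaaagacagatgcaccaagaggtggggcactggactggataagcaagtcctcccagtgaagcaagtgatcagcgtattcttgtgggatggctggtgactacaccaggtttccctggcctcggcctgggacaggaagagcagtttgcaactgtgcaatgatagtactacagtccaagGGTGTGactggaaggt
Klra3: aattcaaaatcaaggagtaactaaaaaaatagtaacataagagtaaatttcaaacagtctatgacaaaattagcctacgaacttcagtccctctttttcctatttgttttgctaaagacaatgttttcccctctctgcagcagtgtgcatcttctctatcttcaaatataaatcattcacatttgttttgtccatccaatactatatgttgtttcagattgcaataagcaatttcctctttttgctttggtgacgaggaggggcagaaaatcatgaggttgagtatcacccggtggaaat
Klra9: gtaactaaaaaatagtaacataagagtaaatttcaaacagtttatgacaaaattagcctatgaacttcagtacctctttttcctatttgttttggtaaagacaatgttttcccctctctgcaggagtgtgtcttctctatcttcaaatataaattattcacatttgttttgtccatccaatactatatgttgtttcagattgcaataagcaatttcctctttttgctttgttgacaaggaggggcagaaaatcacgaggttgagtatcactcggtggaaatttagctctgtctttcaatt
Klrb1a: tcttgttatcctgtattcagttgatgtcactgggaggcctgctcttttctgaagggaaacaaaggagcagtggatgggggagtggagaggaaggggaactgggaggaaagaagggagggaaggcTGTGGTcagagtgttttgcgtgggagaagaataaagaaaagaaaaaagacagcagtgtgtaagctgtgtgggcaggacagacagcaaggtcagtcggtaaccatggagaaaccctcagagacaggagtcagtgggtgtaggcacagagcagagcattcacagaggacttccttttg
Klrb1c: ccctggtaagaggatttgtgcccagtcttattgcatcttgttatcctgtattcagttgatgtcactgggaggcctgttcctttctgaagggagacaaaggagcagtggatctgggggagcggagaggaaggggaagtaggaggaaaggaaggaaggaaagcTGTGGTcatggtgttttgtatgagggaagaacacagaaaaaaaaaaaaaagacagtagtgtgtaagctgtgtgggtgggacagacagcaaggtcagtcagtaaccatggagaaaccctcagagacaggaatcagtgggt
Klrk1: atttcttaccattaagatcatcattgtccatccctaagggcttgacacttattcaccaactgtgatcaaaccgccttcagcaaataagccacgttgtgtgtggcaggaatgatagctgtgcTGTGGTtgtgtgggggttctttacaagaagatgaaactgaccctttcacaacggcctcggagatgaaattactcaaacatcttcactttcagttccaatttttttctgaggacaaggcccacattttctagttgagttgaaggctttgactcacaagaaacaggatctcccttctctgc

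These windows lie at chr6:130386825-130387124 for Klra1, chr6:130337577-130337876 for Klra3, chr6:130193063-130193362 for Klra9, chr6:128622885-128623184 for Klrb1a, chr6:128788592-128788891 for Klrb1c and chr6:129623815-129624114 for Klrk1, all on the minus strand. The Klra3 and Klra9 promoters were 96.4% identical over 281 aligned bases, and those of Klrb1a and Klrb1c 90.8% over 260. The other pairs among the 8 were 53.1% to 64.8% identical. A Runx match was present in 6 of the 8 promoters and in 14.8% of 16376 mouse promoters of the same length. It began 201 bases before the start in Klra1, 126 in Klrb1a, 89 in Klrb1c, 129 in Klrk1, 229 in Klre1 and, on the opposite strand, 87 in Klrc1. The Klra3 and Klra9 promoters held none of the motifs, although both genes are among the 5 that were lower together. The T-box motif was found in the Klra1 promoter alone, at base 35 after the start, against 18.5% of all promoters, and the ETS letters in 0 of 8, against 3.2%. A match describes letters and shows no binding.

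Shared sequence also bears on how reads are split between these genes. Of all 31-base words in its transcripts, Klra9 shared 57.8% with other genes, Klrc1 53.1%, most of them with Klrc2, Klra3 43.5%, Klrb1a 19.4%, Klrb1c 12.4% and Klra1 7.6%. Klrd1 and Klrg1 shared none, and Klrk1 and Klre1 at most 0.5%. The division of reads between Klra3 and Klra9, between Klrb1a and Klrb1c, and between Klrc1 and Klrc2 is therefore uncertain.

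In the sorted CD8+ T cells, the receptors fell into 2 tiers of level, well apart. Klrd1, which encodes CD94, had a median of 1240 TPM over the 20 libraries (387.8 to 1859), above 99.5% of all genes in the table. Klrk1, which encodes NKG2D, and Klrc1, which encodes NKG2A, the partner of CD94, had medians of 321 and 313 TPM and did not keep an order, with Klrk1 the higher in 6 of 20 libraries. Klre1, which pairs with the products of Klri1 or Klri2, followed at 158 TPM. In each of the 20 libraries Klrd1 was above Klrk1, Klrc1 above Klre1 and Klre1 above Klra1.

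The lower tier held Klra1 (Ly49A) at a median of 21.2 TPM, Klra3 (Ly49C) at 20.9, Klrb1c (NK1.1) at 11.8, Klrb1a (NKR-P1A) at 8.40, Klra9 (Ly49I) at 7.45 and Klrg1, a cadherin receptor that marks terminally differentiated effector T cells, at 4.64. Neighbours in this tier often changed places. Klra1 was above Klra3 in 13 of 20 libraries, Klra3 above Klrb1c in 17, Klrb1c above Klrb1a in 19, Klrb1a above Klra9 in 15 and Klra9 above Klrg1 in 14.

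The libraries labelled bulk tumour gave the same tiers, with Klre1 above Klra1 in 17 of 19. Their medians over 19 libraries were 695 TPM for Klrd1, 335 for Klrc1, 217 for Klrk1 and 116 for Klre1, against 16.7 for Klra1, 12.6 for Klra3, 11.2 for Klrb1c, 5.34 for Klra9, 1.31 for Klrg1 and 1.20 for Klrb1a. Values listed at 0 occurred in the lower tier alone, in 4 libraries each for Klra9 and Klrg1, in 2 for Klrb1a and in 1 each for Klra1 and Klra3. Klra1 exceeded Klra3 in 9 of 19 libraries, so that their order was not kept there either. The tables may have been normalised separately, so a level in one set is not compared with that in the other.

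The first comparison asked how the receptors differed between anti-PD-1 and isotype in CD8+ T cells of mice with the CZA+DAV132 transplant. The Ly49 and NKR-P1 genes fell most, with log2 fold changes of -2.40 to -1.64, and their groups did not overlap. CD94, NKG2D and Klre1 transcripts also fell, by less and with calls that depended on scaling, while Klrc1 and Klrg1 did not pass the test. With limma, 8 of the 10 genes were lower at an adjusted p under 0.05 (9 at an unadjusted p under 0.05), where 19.4% of the 12942 tested genes were lower. Shares of all tested genes are at the adjusted threshold throughout, and none is given here for unadjusted p-values. Over all genes 533 were higher and 2509 lower, a split that was 1470 and 1828 under median-ratio scaling and 1845 and 1065 after rescaling without repeats and mitochondrial genes. Their median log2 fold change was -1.37, against -0.34 over all tested genes, and fold changes are on the log2(TPM + 1) scale, which understates those of low genes. In libraries made from many cells, fewer cells of a type and less RNA per cell cannot be told apart.

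Among the Ly49 genes, Klra1 stood at 7.02, 3.01, 10.6, 1.33 and 10.1 TPM in CZA+DAV132 with anti-PD-1, against 18.7, 29.1, 56.6, 31.4 and 34.9 TPM in CZA+DAV132 with isotype. All 5 anti-PD-1 libraries lay below all 5 isotype libraries. The means were 6.41 ± 4.15 and 34.2 ± 13.9 TPM (SD, n = 5 each), a log2 fold change of -2.40 (SE 0.42, limma adjusted p = 0.00507). Klra3 stood at 3.82, 6.69, 7.36, 4.53 and 17.3 TPM with anti-PD-1, against 28.4, 23.7, 49.4, 26.2 and 25.9 TPM with isotype. Library 20 was the highest of its group, yet below every isotype library. Its log2 fold change was -1.95 (SE 0.36, limma adjusted p = 0.0052). Klra9 stood at 1.01, 1.89, 4.07, 0.588 and 3.57 TPM with anti-PD-1, against 6.60, 14.1, 26.95, 7.31 and 7.78 TPM with isotype. Here too the groups did not overlap, and the log2 fold change was -2.02 (SE 0.41, limma adjusted p = 0.00653). Ly49A, Ly49C and Ly49I are inhibitory receptors for MHC class I.

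The NKR-P1 genes moved alike. Klrb1a stood at 2.25, 0.986, 2.02, 1.01 and 6.23 TPM in CZA+DAV132 with anti-PD-1, against 9.94, 18.6, 30.4, 11.1 and 11.7 TPM in CZA+DAV132 with isotype. The highest anti-PD-1 library again lay below the lowest isotype library, with a log2 fold change of -2.37 (SE 0.39, limma adjusted p = 0.00398). Klrb1c, whose product NK1.1 is the antigen used to identify NK cells in C57BL/6 mice, stood at 5.20, 4.95, 8.25, 1.78 and 7.27 TPM with anti-PD-1, against 11.5, 16.5, 42.1, 17.7 and 12.1 TPM with isotype. The groups did not overlap, and the log2 fold change was -1.64 (SE 0.38, limma adjusted p = 0.00855). Separation of this kind, with the anti-PD-1 group lower, was seen in 12.1% of the tested genes.

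For these 5 genes the direction held in every alternative, with log2 fold changes of -2.66 to -1.93 for Klra1, -2.25 to -1.41 for Klra3, -2.53 to -1.54 for Klra9, -2.86 to -1.98 for Klrb1a and -1.83 to -1.14 for Klrb1c. Each stayed called in every alternative that tested it, with the exception of Klrb1c without libraries 16 and 19 (limma adjusted p = 0.0553). All Klra genes summed, which avoids the split of reads between them, gave -1.71 (SE 0.35, limma adjusted p = 0.00688). This sum also holds Klra5, Klra6, Klra7 and other Klra genes outside the receptors followed here. In CZA+DAV132 with isotype, its median was 17.1% of the summed Klrd1, Klrc1, Klrk1 and Klre1. The 5 genes above, NKR-P1 genes included, had 4.36%. The sum thus mostly describes other Klra genes and is no test of Klra1, Klra3 and Klra9 themselves.

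The receptors of the upper tier differed less. Klrd1 stood at 408, 1121, 1158, 387.8 and 1242 TPM in CZA+DAV132 with anti-PD-1, against 1859, 1475, 1395, 1072 and 1391 TPM in CZA+DAV132 with isotype. Libraries 16 and 19 lay far below the other anti-PD-1 libraries, which overlapped with library 14 of the isotype group. The log2 fold change was -0.90 (SE 0.31, limma adjusted p = 0.0424). Klrk1 stood at 59.2, 227, 253, 91.4 and 367 TPM with anti-PD-1, against 507, 380, 322, 252 and 337 TPM with isotype. The same 2 libraries were the lowest and library 20 was above the isotype mean, with a log2 fold change of -1.10 (SE 0.36, limma adjusted p = 0.0323). Klre1 averaged 108 ± 44.9 TPM with anti-PD-1 and 200 ± 62.4 TPM with isotype (SD, n = 5 each), a log2 fold change of -0.94 (SE 0.31, limma adjusted p = 0.0328).

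Libraries 16 and 19 have the highest repeat shares of their group. Without them the log2 fold changes were -0.27 for Klrd1 (limma adjusted p = 0.37), -0.34 for Klrk1 (0.293) and -0.45 for Klre1 (0.261). Median-ratio scaling gave -0.42 for Klrd1 (limma adjusted p = 0.109), -0.62 for Klrk1 (0.0823) and -0.46 for Klre1 (0.149). Klrc1 averaged 215 ± 99.7 TPM with anti-PD-1 and 333 ± 81.8 TPM with isotype (SD, n = 5 each), with a log2 fold change of -0.74 (SE 0.30, limma adjusted p = 0.0759). Klrg1 averaged 4.79 ± 3.89 and 5.42 ± 5.91 TPM in the same order, with a log2 fold change of -0.05 (SE 0.48, limma adjusted p = 0.95), so that the spread within each group was close to its mean. Its sign turned under median-ratio scaling, to 0.30, and without libraries 16 and 19, to 0.50, with no call in either.

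**Figure D1:**
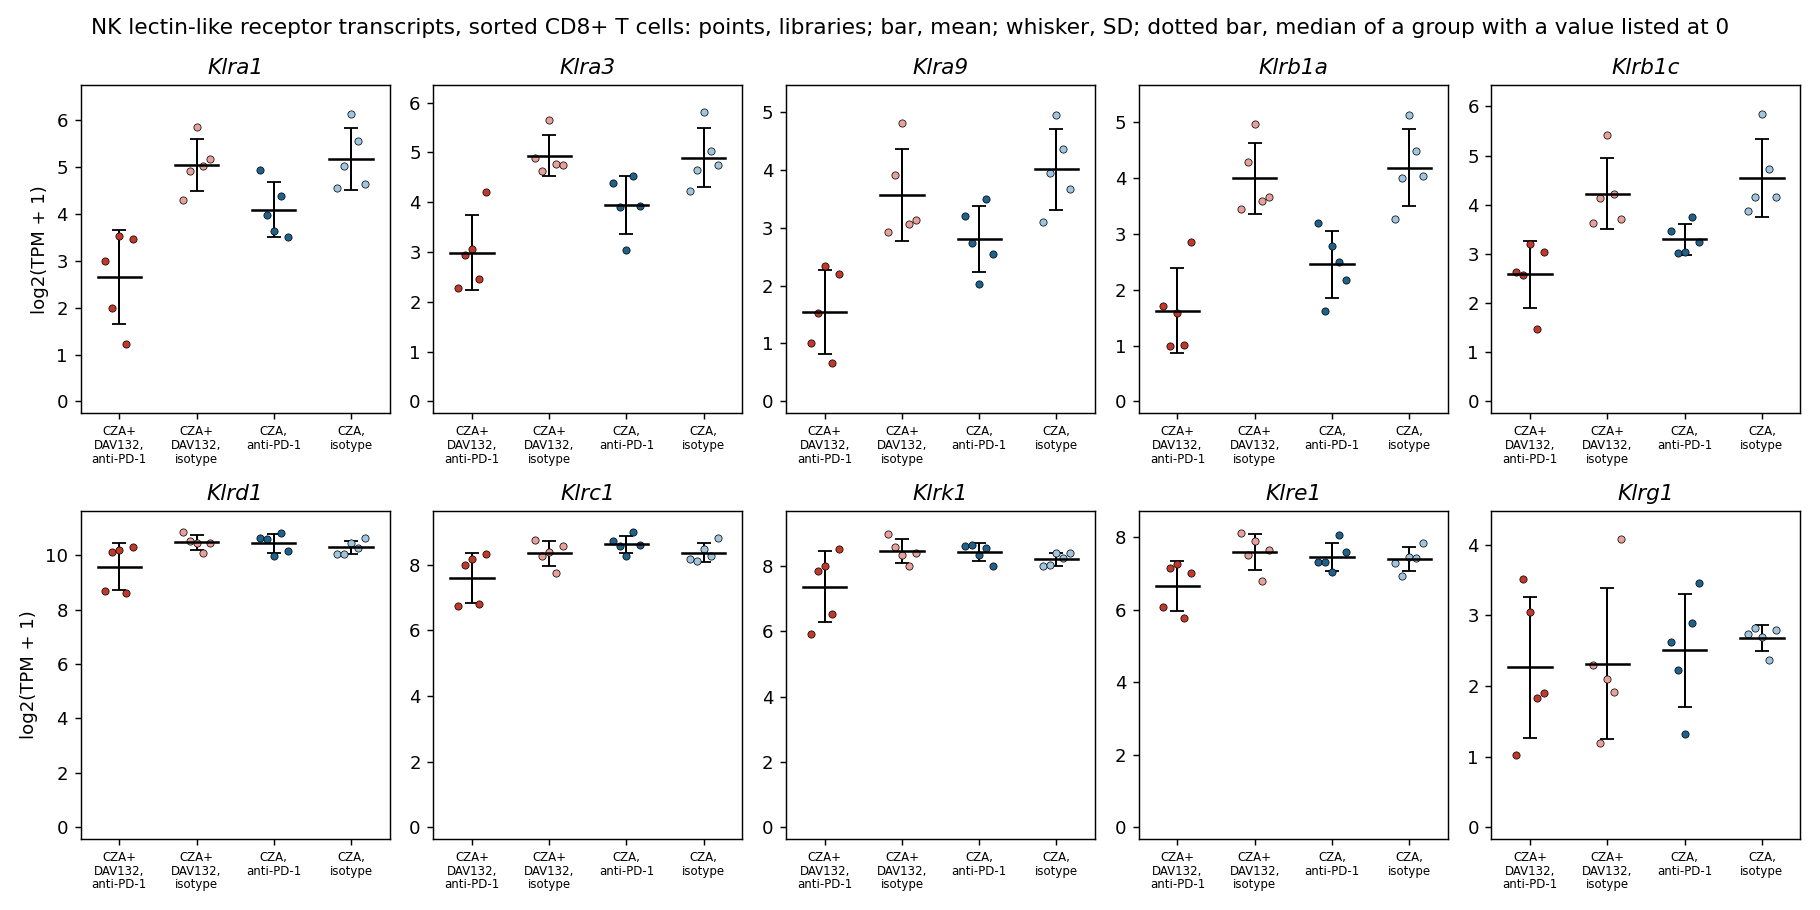
Levels of the 10 receptor genes in sorted CD8+ T cells, as log2(TPM + 1) for each of the 20 libraries, by group, with mean and SD. Klra1, Klra3, Klra9, Klrb1a and Klrb1c of CZA+DAV132 with anti-PD-1 lie below every library of CZA+DAV132 with isotype, and Klrg1 overlaps in all groups.

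In the CZA arm, the same 5 genes were again lower with anti-PD-1 than with isotype, but none passed the test. Limma called 0 of the 10 genes at an adjusted p under 0.05, where 0.0155% of tested genes were called in either direction. At an unadjusted p under 0.05 there were 5, which cannot be read against that share. Klrb1a stood at 8.20, 2.09, 5.87, 4.63 and 3.495 TPM in CZA with anti-PD-1, against 8.59, 15.1, 34.2, 21.4 and 15.4 TPM in CZA with isotype. The groups did not overlap, by a narrow margin, with a log2 fold change of -1.73 (SE 0.39, limma adjusted p = 0.316). Klrb1c stood at 10.0, 7.07, 7.17, 12.5 and 8.51 TPM with anti-PD-1, against 13.7, 16.8, 56.9, 25.6 and 16.8 TPM with isotype. Again no library overlapped, with a log2 fold change of -1.25 (SE 0.38, limma adjusted p = 0.586), and such separation downwards was seen in 0.44% of the tested genes.

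The Ly49 genes of the CZA arm had values on the same side. Klra1 stood at 29.8, 14.6, 11.4, 19.9 and 10.4 TPM in CZA with anti-PD-1, against 22.4, 31.3, 68.7, 46.2 and 23.96 TPM in CZA with isotype. Library 6, at 29.8 TPM, lay within the isotype range, and the log2 fold change was -1.09 (limma adjusted p = 0.805). Klra9 had a log2 fold change of -1.20 (limma adjusted p = 0.712) and Klra3 of -0.94 (0.8). The upper tier had small values of the other sign, 0.25 for Klrc1, 0.22 for Klrk1, 0.14 for Klrd1 and 0.07 for Klre1 (limma adjusted p = 0.997 each). The members' median was -0.56, against -0.02 over all tested genes.

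Averaged over both arms, the Ly49 and NKR-P1 genes were lower with anti-PD-1, and they were the ones called among the 10. Limma called 5 lower, where 10.8% of tested genes were lower. Over all genes 273 were higher and 1394 lower, against 1486 and 1124 after rescaling without repeats and mitochondrial genes. The log2 fold changes were -2.05 for Klrb1a (SE 0.28, limma adjusted p = 0.00118), -1.75 for Klra1 (SE 0.30, 0.00514), -1.61 for Klra9 (SE 0.29, 0.00547), -1.45 for Klra3 (SE 0.25, 0.00547) and -1.44 for Klrb1c (SE 0.27, 0.00704). Each was called in every alternative that tested it, including the fit without libraries 16 and 19. Klrd1 (-0.38, limma adjusted p = 0.268), Klrk1 (-0.44, 0.26), Klre1 (-0.43, 0.19), Klrc1 (-0.24, 0.481) and Klrg1 (-0.12, 0.862) did not pass.

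**Figure D2:**
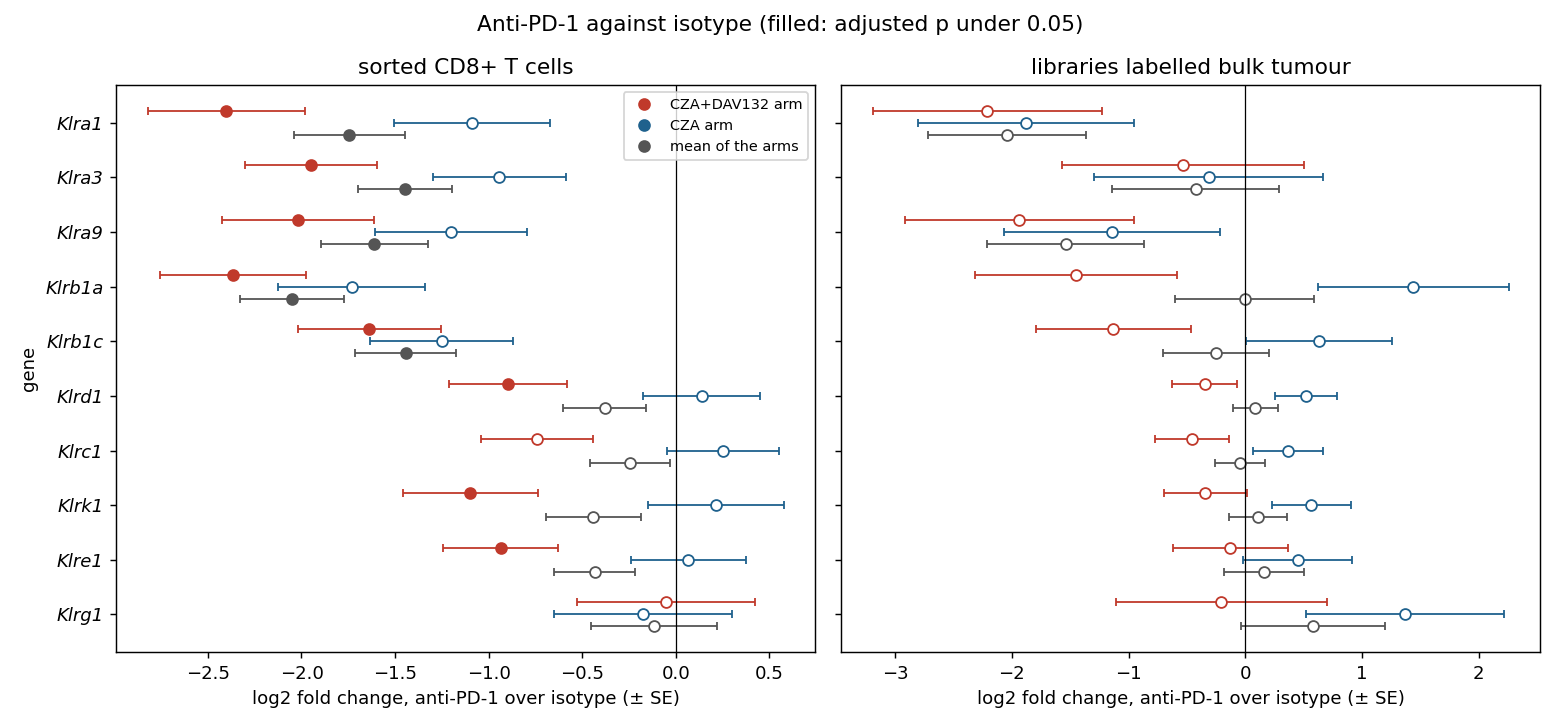
Log2 fold changes (± SE) of anti-PD-1 over isotype for the 10 receptor genes in each arm and averaged over arms, in the sorted cells (left) and in the libraries labelled bulk tumour (right). Filled points have an adjusted p under 0.05: 8 in the CZA+DAV132 arm and 5 in the average of the sorted cells, and none in the libraries labelled bulk tumour.

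Next, the transplant arms were compared under each antibody. Under anti-PD-1, CZA+DAV132 lay below CZA for all 10 genes on the log2 scale. Limma called 0 of them at an adjusted p under 0.05, where 0.0386% of tested genes were called in either direction. At an unadjusted p under 0.05 there were 8, and the share of all tested genes at that threshold is not given here. Klra1 averaged 6.41 TPM in CZA+DAV132 with anti-PD-1 and 17.2 TPM in CZA with anti-PD-1, a log2 fold change of -1.44 (limma adjusted p = 0.0683). Klrc1 averaged 215 and 399 TPM in the same order, a log2 fold change of -1.02 (limma adjusted p = 0.0683). The 10 genes had a median of -0.91, against -0.40 over all tested genes. Libraries 16 and 19 belong to the lower group. Without them Klra1 had -1.09 (limma adjusted p = 0.446), Klrc1 -0.47 (0.449) and Klrd1 -0.23 (0.641), Klrg1 turned to 0.32 (0.82), and the median over all tested genes was -0.05. The count of calls was 8 without library 20, 6 without library 18 and 4 without library 8. Calls over all genes rose as well, to 34 higher and 2172 lower without library 18, from 0 and 5 with all libraries.

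Under isotype, limma called 0 of the 10 genes (0 at an unadjusted p under 0.05), where 0.0% of tested genes were called. For CZA+DAV132 over CZA averaged over antibodies it called 0 (3 at an unadjusted p under 0.05), where 0.0% of tested genes were called. The interaction tests whether the difference between antibodies was unequal in the 2 arms. It was called for 0 of the 10 genes (5 at an unadjusted p under 0.05), where 0.0% of tested genes were called. These percentages are at the adjusted threshold, so the 3 and the 5 at an unadjusted p cannot be read against them. The lowest adjusted p of the interaction was 0.29, for Klrk1 (log2 difference -1.31, SE 0.51, limma), and Klra1 had -1.31 as well (limma adjusted p = 0.304). A larger effect in the CZA+DAV132 arm was therefore not shown for any of these receptors.

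A percentage taken within a library is untouched by scaling. The summed TPM of Klra1, Klra3, Klra9, Klrb1a and Klrb1c was set over that of Klrd1, Klrc1, Klrk1 and Klre1, a division chosen after the values were seen and given with no test. In the sorted cells it was 1.88% ± 0.77 in CZA+DAV132 with anti-PD-1 and 5.10% ± 2.47 in CZA+DAV132 with isotype (SD, n = 5 each), with an overlap through library 16 at 3.02% and library 11 at 2.44%. In the CZA arm it was 2.24% ± 0.48 with anti-PD-1 and 6.29% ± 2.88 with isotype (SD, n = 5 each), and the ranges of 1.75% to 3.01% and 3.65% to 10.8% did not overlap. The numerator holds the genes that fell most in these libraries, so its direction follows from the choice and supports nothing further. Klrg1 is in neither sum.

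Of the 20 further Klr genes, 12 passed the filter in the sorted cells, and 5 of them were lower with anti-PD-1 in the CZA+DAV132 arm, where 19.4% of all tested genes were. Klra7 (Ly49G2) averaged 40.0 TPM in CZA+DAV132 with anti-PD-1 and 156 TPM in CZA+DAV132 with isotype, a log2 fold change of -1.999 (limma adjusted p = 0.00854). Klra6 (Ly49F) averaged 12.9 and 45.7 TPM in the same order, with -1.80 (limma adjusted p = 0.00773), and Klra5 (Ly49E) 36.7 and 126 TPM, with -1.71 (limma adjusted p = 0.00895). Klrb1b, an inhibitory NKR-P1 receptor, had -1.10 (limma adjusted p = 0.0107) and Klrb1f had -1.27 (0.0204). The median of the 12 was -0.86, against -0.34 over all tested genes. Without libraries 16 and 19, Klra6 alone remained called among the 5, and none changed sign. Averaged over arms, 6 of the 12 were lower, these 5 and Klri1 (-0.79, limma adjusted p = 0.0402), and all 6 stayed called without libraries 16 and 19. In the CZA arm 0 of the 12 were called by limma (5 at an unadjusted p under 0.05).

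The adaptors that carry the signals of the activating receptors are small membrane proteins shared by several of them. Of 13 adaptor and proximal signalling genes tested, 3 were lower in CZA+DAV132 with anti-PD-1 than in CZA+DAV132 with isotype and none higher, a share near the 19.4% of all tested genes. The list's median of -0.36 was likewise near the -0.34 of all tested genes. Tyrobp, which encodes DAP12, averaged 61.1 ± 27.02 TPM with anti-PD-1 and 192 ± 85.9 TPM with isotype (SD, n = 5 each), with no overlap and a log2 fold change of -1.68 (SE 0.40, limma adjusted p = 0.00899). Fcer1g, which encodes the FcR gamma chain through which NK1.1 signals, averaged 301 and 766 TPM in the same order, a log2 fold change of -1.33 (limma adjusted p = 0.0171). Hcst, which encodes DAP10, the adaptor of NKG2D, had medians of 470 and 680.0 TPM, a log2 fold change of -1.08 (limma adjusted p = 0.0289). Without libraries 16 and 19, Tyrobp stayed called (-1.35, limma adjusted p = 0.0457) and Fcer1g and Hcst did not (0.117 and 0.269). When scaled to CD3 transcripts, 0 of the 3 stayed called, Tyrobp included. Median-ratio scaling left 2 of the 3 called, and rescaling without repeats and mitochondrial genes 1. Averaged over arms, Tyrobp (-1.51, limma adjusted p = 0.00704), Fcer1g (-1.06, 0.0197) and Plcg2, a phospholipase downstream of these receptors (-0.59, 0.023), were lower.

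Of 11 ligand genes tested, 2 were lower in CZA+DAV132 with anti-PD-1 than in CZA+DAV132 with isotype, a share near the 19.4% of all tested genes, and the list's median was -0.37. H2-D1, a classical MHC class I gene, averaged 773 TPM with anti-PD-1 and 1319 TPM with isotype (log2 fold change -0.90, limma adjusted p = 0.0423). Clec2i, whose product is bound by the receptor of Klrb1f, averaged 6.22 and 10.7 TPM in the same order (log2 fold change -0.86, limma adjusted p = 0.0417). Neither was called under median-ratio scaling, after rescaling without repeats and mitochondrial genes, when scaled to CD3 transcripts or without libraries 16 and 19. H2-T23, which encodes Qa-1, the ligand of CD94/NKG2A, had -0.31 (limma adjusted p = 0.462).

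Of 11 transcription factor genes, Prdm1, which encodes Blimp-1, was higher and Nfil3 lower in CZA+DAV132 with anti-PD-1 than in CZA+DAV132 with isotype. Of all tested genes 19.4% were lower. The list's median was -0.114, against -0.34 over all tested genes. Prdm1 averaged 6.58 TPM with anti-PD-1 and 2.63 TPM with isotype (log2 fold change 0.99, limma adjusted p = 0.03), and stayed called under each other scaling and without libraries 16 and 19. Nfil3, needed for NK cell development, averaged 8.91 and 18.7 TPM in the same order (-1.09, limma adjusted p = 0.0416), and did not stay called. Of 16 effector genes tested, 5 were lower and none higher in the same comparison, where 19.4% of all tested genes were lower. The median of the 16 was -0.53, against -0.34 over all tested genes. Xcl1, a chemokine for cross-presenting dendritic cells, averaged 955 TPM with anti-PD-1 and 3085 TPM with isotype (-2.02, limma adjusted p = 0.00715). Cd160 averaged 98.3 and 235 TPM in the same order (-1.57, limma adjusted p = 0.00886). Cd226 had -1.38 (0.00869), Nkg7 -1.09 (0.0351) and Cd96 -1.01 (0.0274), all by limma. Xcl1, Cd160 and Cd226 stayed called under each scaling and without libraries 16 and 19.

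Markers of other cells were followed in the sorted libraries as well. Among the NK-defining genes, Ncr1, which encodes NKp46, stood at 0.139 to 3.502 TPM and Itga2 at 0 to 0.503 TPM. Ncr1 was highest in library 13 of CZA+DAV132 with isotype, at 3.03 TPM against 0.193 to 0.791 TPM in the others of that group, and in library 3 of CZA with isotype, at 3.502 TPM against 0.416 to 0.713 TPM. The 5 Ly49 and NKR-P1 genes were highest in these same 2 libraries of their groups. The other NK-defining genes did not all peak there. In library 13 Itga2 was the lowest of its group (0.0701 TPM) and Fcgr3 the highest (35.8 TPM). Eomes there (9.27 TPM) was below library 15 (10.5 TPM). In library 3 Itga2 (0.503 TPM) and Eomes (12.5 TPM) were highest, and Fcgr3 (25.6 TPM) was below library 5 (59.4 TPM). The 4 NK-defining genes summed to 7.31 to 21.1 TPM in CZA+DAV132 with anti-PD-1, 9.60 to 48.2 TPM in CZA+DAV132 with isotype, 11.1 to 25.9 TPM in CZA with anti-PD-1 and 21.1 to 66.4 TPM in CZA with isotype. Ncr1 and Itga2 did not pass the filter, so 2 of the 4 were tested, Eomes and Fcgr3. Fcgr3 was lower with anti-PD-1 averaged over arms (-1.49, limma adjusted p = 0.0168). Of 10 tested NK and innate lymphoid genes, limma called 0 in the CZA+DAV132 arm, where 19.4% of all tested genes were lower. In the average it called 2 lower, Fcgr3 and Tmem176a, and 1 higher, Styk1, where 10.8% of all tested genes were lower. The list's medians were -0.365 and -0.103 in the same order, near the -0.34 and -0.172 of all tested genes. The part of NK and innate lymphoid cells in the result was not tested.

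Constant genes of the gamma-delta T cell receptor were lower with the receptors. Tcrg-C4 averaged 7.68 TPM in CZA+DAV132 with anti-PD-1 and 47.3 TPM in CZA+DAV132 with isotype, a log2 fold change of -2.77 (limma adjusted p = 0.00582). Tcrg-C1 had -2.04 (limma adjusted p = 0.00878) and Tcrg-C2 -1.49 (0.014). Thus 3 of 4 tested genes of that list were lower, and 3 of 4 in the average, where 19.4% and 10.8% of all tested genes were. Without libraries 16 and 19, Tcrg-C4 stayed called in the CZA+DAV132 arm (-1.96, limma adjusted p = 0.0293), and Tcrg-C1 (0.0759) and Tcrg-C2 (0.0802) did not. Tcrg-C2 also lost its call under median-ratio scaling (limma adjusted p = 0.0564). The summed list ranged over 33.1 to 197 TPM in CZA+DAV132 with anti-PD-1, 224 to 422 TPM in CZA+DAV132 with isotype, 85.6 to 221 TPM in CZA with anti-PD-1 and 148 to 566 TPM in CZA with isotype. Tcrg genes can also be transcribed in other T cells, and the part of gamma-delta cells in the result was not tested.

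Macrophage and monocyte markers were lower too, 5 of 10 in the CZA+DAV132 arm (Apoe, C1qc, Cd68, Mrc1 and Ly6c2) and 10 of 10 in the average. Of all tested genes, 19.4% and 10.8% were lower in the same order. Of the 5, limma called 2 under median-ratio scaling, 1 after rescaling without repeats and mitochondrial genes, 1 when scaled to CD3 transcripts and 0 without libraries 16 and 19. Of the 10, it called 10, 6, 5 and 9 in the same order. Their sums ranged over 345 to 1291 TPM in CZA+DAV132 with anti-PD-1, 1769 to 3203 TPM in CZA+DAV132 with isotype, 1048 to 3036 TPM in CZA with anti-PD-1 and 1623 to 4844 TPM in CZA with isotype. Tyrobp, Fcer1g, H2-D1 and Fcgr3 are also transcribed in such cells. Of 9 dendritic markers, Ccr7 and Cd74 were lower and Siglech higher in the CZA+DAV132 arm, and without libraries 16 and 19 Ccr7 alone stayed called, as it did under the 3 scalings, where Cd74 lost its call and Siglech kept it. In the average Ccr7 (-1.73), Cd74 (-1.56), H2-Aa and H2-Ab1 were lower. Of 12 T cell markers, 11 had a negative log2 fold change in the CZA+DAV132 arm, 6 at an unadjusted p under 0.05 by limma. Their median was -0.658, against -0.34 over all tested genes. Trbc1 alone was called lower there (-1.12). Trbc1 was called under none of the 3 scalings and not without libraries 16 and 19 (-0.38, limma adjusted p = 0.473). Of the B cell markers Pax5 alone was higher (1.45), and not without libraries 16 and 19 (limma adjusted p = 0.21). The lists for effector CD8 T cells, fibroblast and sarcoma, neutrophil and mast, and erythroid cells had 0 called by limma in that arm. The part of these cells in the result was not tested.

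**Figure D3:**
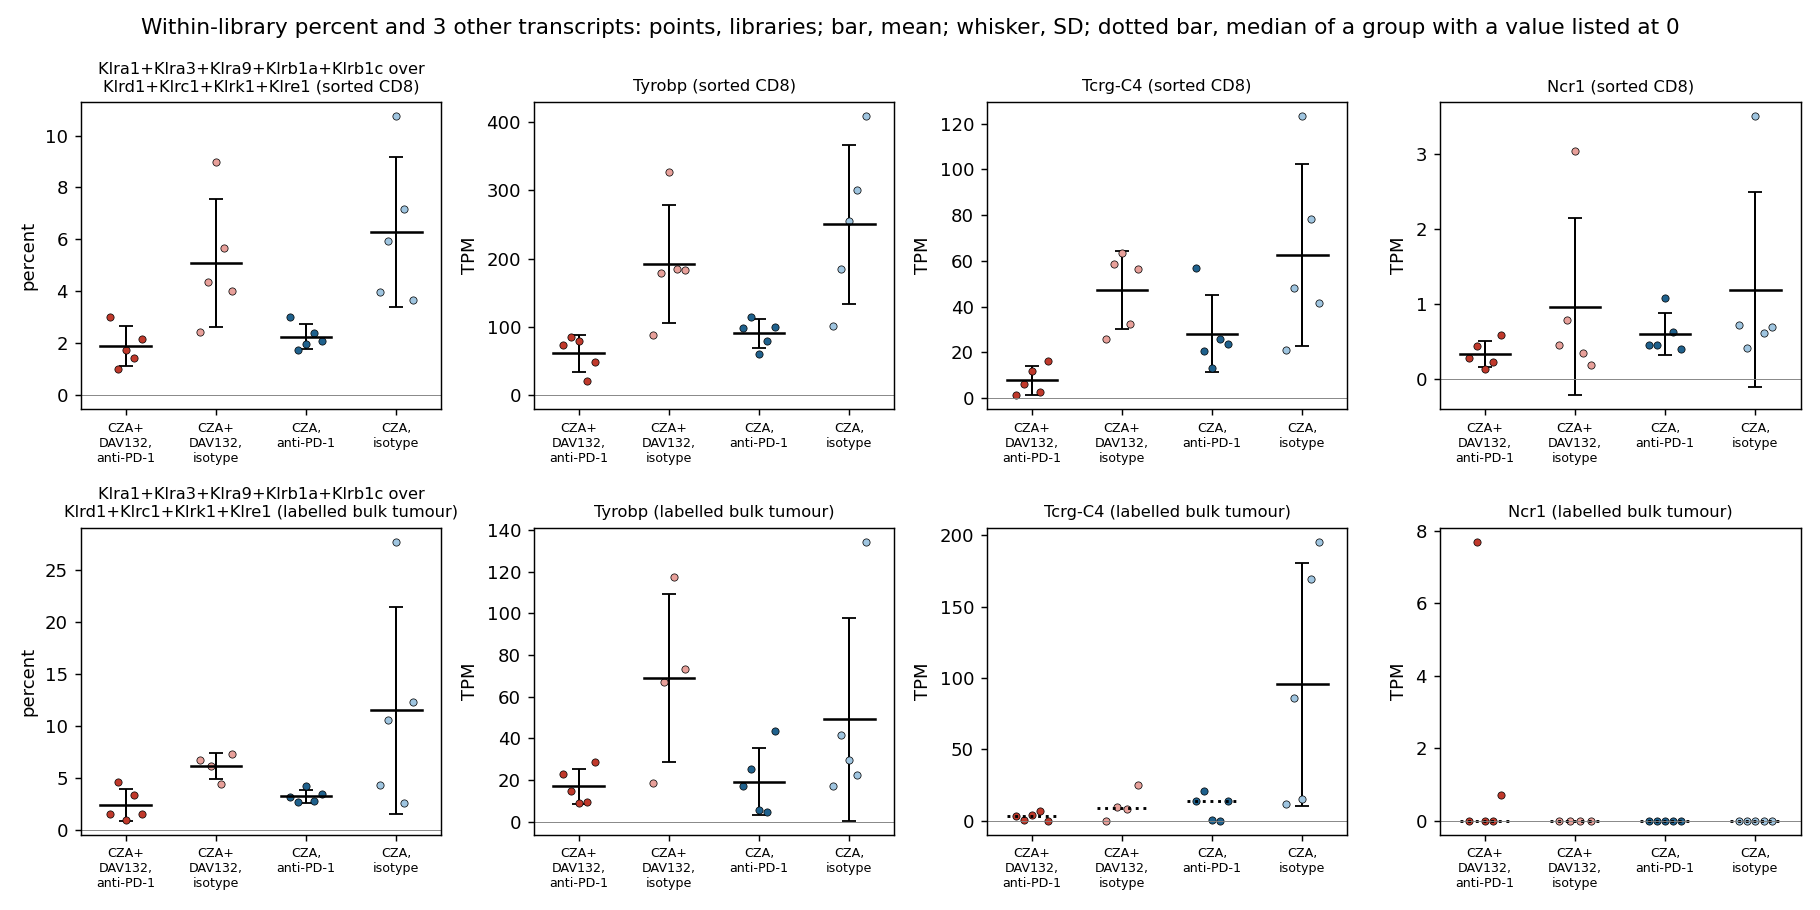
The within-library percentage of Klra1, Klra3, Klra9, Klrb1a and Klrb1c over Klrd1, Klrc1, Klrk1 and Klre1, and the TPM of Tyrobp, Tcrg-C4 and Ncr1, for each library by group, in sorted cells (top) and in libraries labelled bulk tumour (bottom). In the sorted cells Tyrobp of CZA+DAV132 with anti-PD-1 stays below every library of CZA+DAV132 with isotype, and Ncr1 stays at or below 3.502 TPM in all 20 libraries.

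The plot of alternatives sets the receptors under other settings side by side. In the CZA+DAV132 arm, median-ratio scaling brought all of the called receptors nearer to 0, Klra1 to -2.03 and Klrb1c to -1.25 as well as Klrd1 to -0.42. The 5 Ly49 and NKR-P1 genes stayed called under that scaling, and Klrd1, Klrk1 and Klre1 did not.

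**Figure D4:**
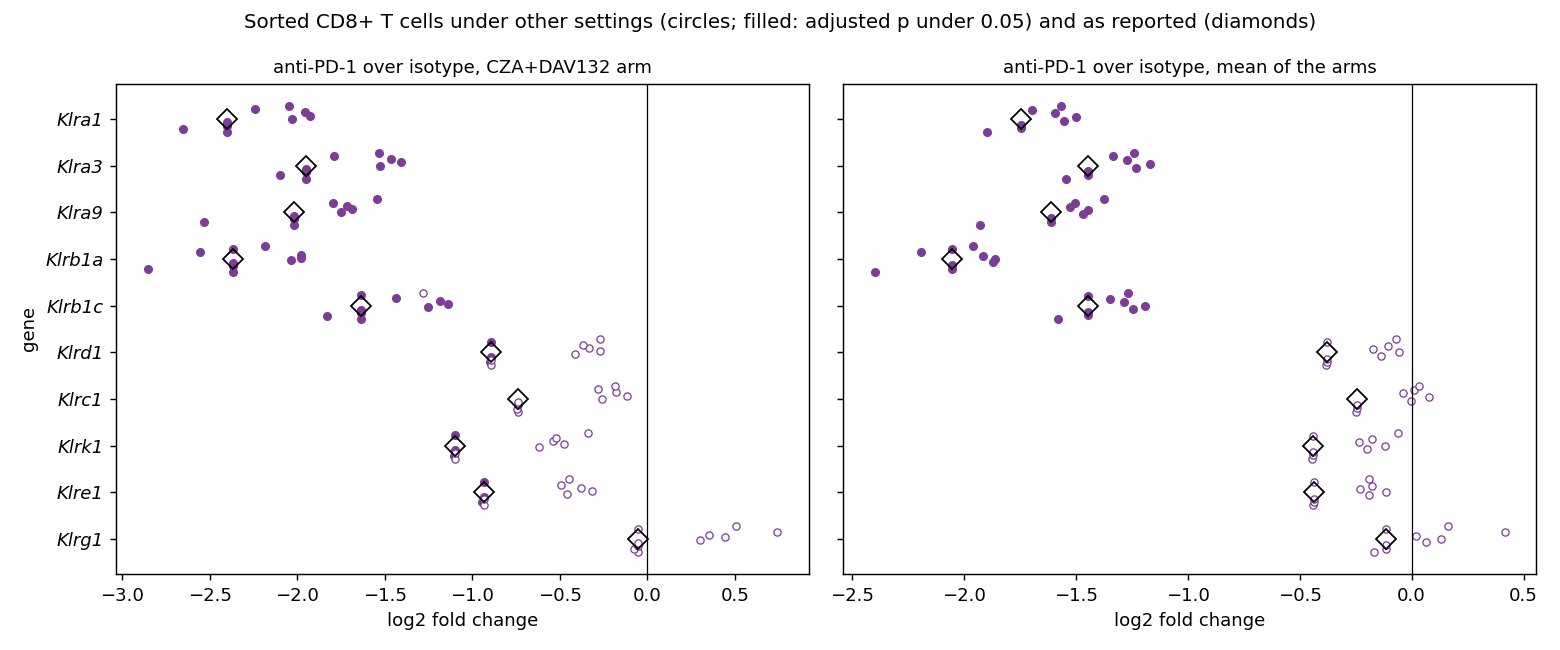
Log2 fold changes of anti-PD-1 over isotype in sorted CD8+ T cells under other settings (circles) and as reported (diamonds), in the CZA+DAV132 arm (left) and averaged over arms (right). Fits that leave out a single library are not drawn, and filled circles have an adjusted p under 0.05, which in the CZA+DAV132 arm holds for Klra1, Klra3, Klra9 and Klrb1a in each setting drawn.

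In the libraries labelled bulk tumour, limma called 0 of the 10 receptor genes in each of the 7 comparisons. With anti-PD-1 against isotype, 1 had an unadjusted p under 0.05 in the CZA+DAV132 arm, where 0.24% of 13326 tested genes were called in either direction. In the CZA arm 0 had an unadjusted p under 0.05, where 0.285% of genes were called. Averaged over arms 2 had one, where 1.07% were called, 69 higher and 73 lower (174 and 96 after rescaling, 24 and 153 when scaled to CD3 transcripts). Between the transplant arms, 5 had an unadjusted p under 0.05 under anti-PD-1, where 0.0% of genes were called, 1 under isotype, where 0.113% were, and 2 averaged over antibodies, where 0.0% were. For the interaction 2 had one, where 0.045% were called. All of these percentages are at the adjusted threshold, so the unadjusted counts cannot be read against them.

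Klra1 came nearest to a call there. It stood at 7.41, 15.0, 1.09, 16.9 and 4.35 TPM in CZA+DAV132 with anti-PD-1, against 45.5, 26.4, 47.0 and 25.1 TPM in CZA+DAV132 with isotype. The groups did not overlap, as for 4.44% of the tested genes in that direction, and the log2 fold change was -2.21 (SE 0.98, limma adjusted p = 0.417). In the CZA arm it stood at 3.09, 16.7, 1.14, 7.66 and 5.33 TPM with anti-PD-1, against 0, 40.6, 80.3, 19.2 and 81.5 TPM with isotype. Every isotype library except T983, listed at 0, lay above all anti-PD-1 libraries, and the log2 fold change was -1.88 (SE 0.93, limma adjusted p = 0.399). Averaged over arms it was -2.04 (SE 0.67, limma adjusted p = 0.156). Without T983 Klra1 was called, with -2.997 in the CZA arm (limma adjusted p = 0.0368) and -2.60 in the average (0.0236).

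Klra9 in these libraries was listed at 0 in 2 of 5 libraries of CZA+DAV132 with anti-PD-1 and reached 1.35 TPM in the others, against 5.34, 11.9, 0 and 7.83 TPM in CZA+DAV132 with isotype (log2 fold change -1.93, limma adjusted p = 0.527). Under anti-PD-1 it stood at 19.8, 5.76, 14.5, 0 and 7.59 TPM in CZA, so that CZA+DAV132 was lower by a log2 fold change of -2.40 (limma adjusted p = 0.497). Klrb1c stood at 8.97, 5.95, 2.95, 7.07 and 5.98 TPM in CZA+DAV132 with anti-PD-1, against 19.1, 10.2, 12.1, 11.2 and 17.0 TPM in CZA with anti-PD-1. These groups did not overlap, as for 1.91% of tested genes in that direction, with a log2 fold change of -1.08 (limma adjusted p = 0.775). Klrb1a had -2.11 in the same comparison (limma adjusted p = 0.498), with 1 library of CZA+DAV132 listed at 0.

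The NKR-P1 genes had anti-PD-1 values of opposite sign in the 2 arms of these libraries. Klrb1a had -1.45 in the CZA+DAV132 arm (limma adjusted p = 0.628) and 1.44 in the CZA arm (0.471), and Klrb1c had -1.13 (0.622) and 0.63 (0.706). Klra3 had -0.53 and -0.31, with its libraries spread from 0 to 69.7 TPM. In the upper tier, Klrd1 averaged 616 ± 239 TPM in CZA+DAV132 with anti-PD-1 and 742 ± 160 TPM in CZA+DAV132 with isotype (SD, n = 5 and 4). In the CZA arm it averaged 869 ± 197 TPM with anti-PD-1 and 595 ± 79.7 TPM with isotype (SD, n = 5 each), with log2 fold changes of -0.35 and 0.52. Klrk1 had -0.34 and 0.56, Klrc1 -0.45 and 0.36, and Klre1 -0.13 and 0.45 in the same order. None passed, and the interaction was called for none of the 10 by limma.

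Klrg1 was the most uneven of the 10 in these libraries. It ranged over 0.333 to 12.1 TPM in CZA+DAV132 with anti-PD-1, 0.143 to 38.3 TPM in CZA+DAV132 with isotype and 0 to 10.4 TPM in CZA with anti-PD-1. In CZA with isotype it was listed at 0 in 3 of 5 libraries and reached 1.26 TPM. The largest of its fold changes, CZA+DAV132 over CZA under isotype, was 2.08 on the log2 scale (limma adjusted p = 0.403).

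The within-library percentage is given here too, without a test. It was 2.38% ± 1.52 in CZA+DAV132 with anti-PD-1 and 6.13% ± 1.27 in CZA+DAV132 with isotype (SD, n = 5 and 4). It was 3.23% ± 0.63 in CZA with anti-PD-1 and 11.5% ± 9.98 in CZA with isotype (SD, n = 5 each), and the groups overlapped in both arms. The other Klr genes, adaptors, ligands, transcription factors and effectors had 0 called by limma in either arm or in the average, of 11, 13, 11, 11 and 16 tested. At an unadjusted p under 0.05 they had 2, 2, 2, 2 and 1 in the CZA+DAV132 arm and 3, 1, 1, 0 and 2 in the CZA arm. Of the marker lists, Hba-a1 of the erythroid list was higher with anti-PD-1 in the CZA arm (3.14) and in the average (2.88), and Ccr7 of the dendritic list lower in the average (-1.56). Ncr1 was listed at 0 in 17 of 19 of these libraries.

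**Figure D5:**
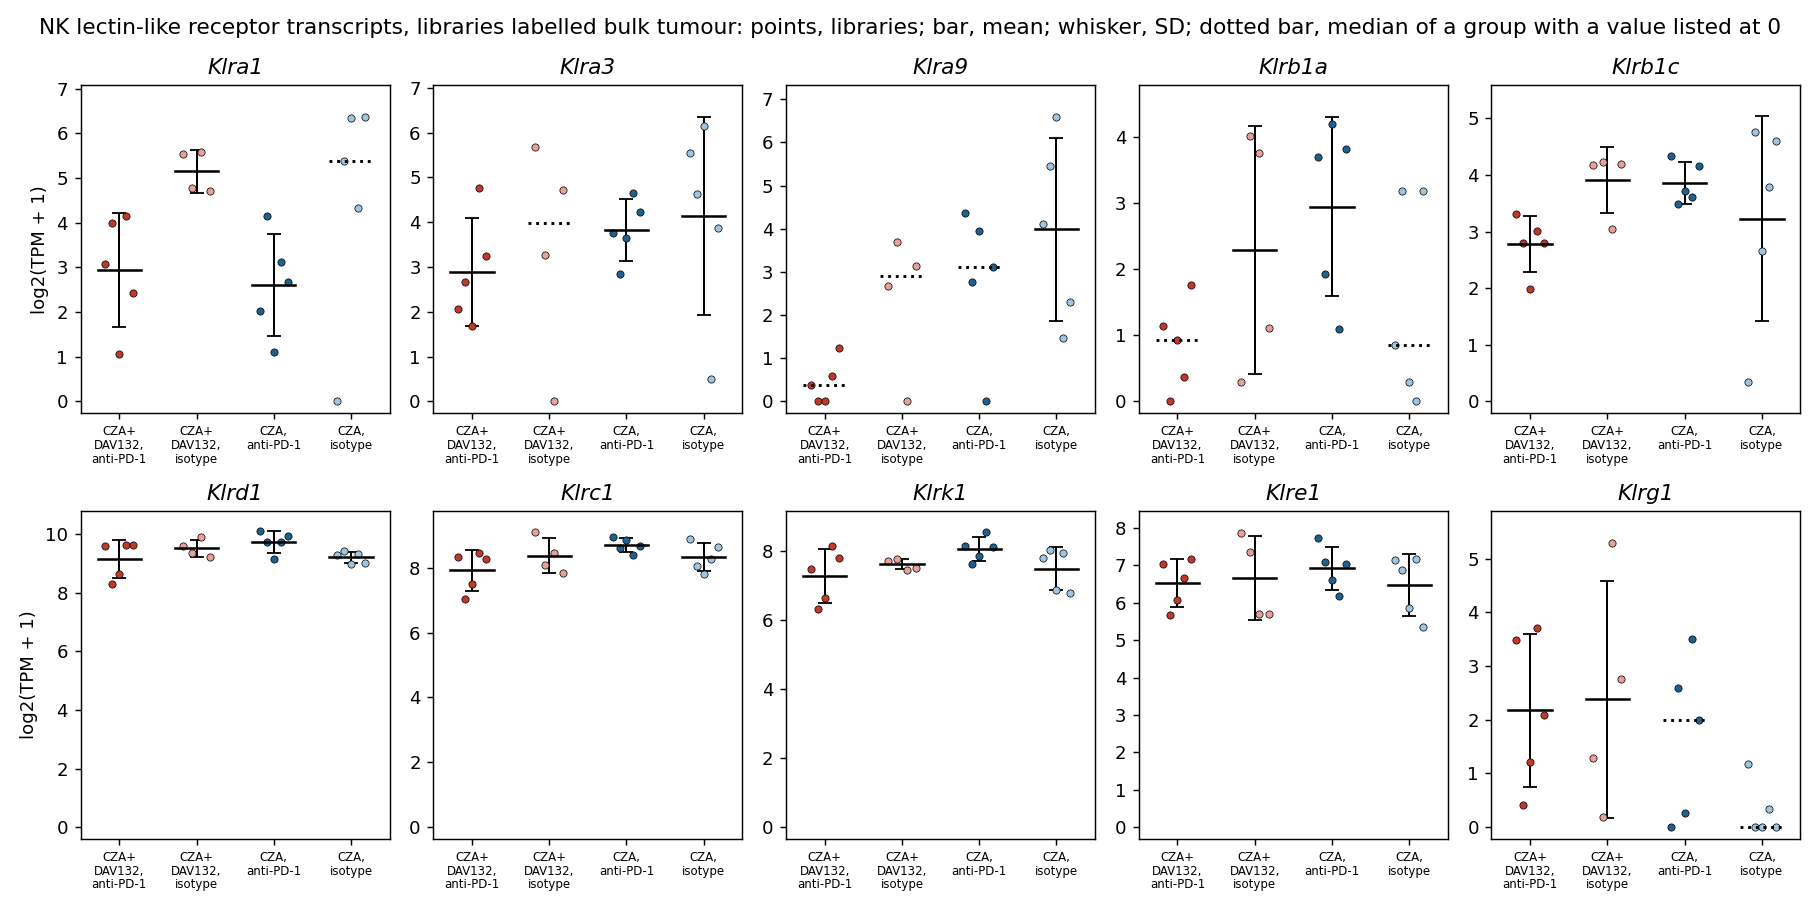
Levels of the 10 receptor genes in the 19 libraries labelled bulk tumour, as log2(TPM + 1), by group, with mean and SD, or with the median alone (dotted) where a library is listed at 0. Klra1 of CZA+DAV132 with anti-PD-1 lies below every library of CZA+DAV132 with isotype, and in CZA with isotype library T983 alone is at 0.

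The mean profile of the 10 genes over libraries, each gene centred and scaled, was set against every other gene with a mean of at least 5 TPM. In the 20 sorted libraries genes among the nearest of 7530 were Immp1l (root mean square distance 0.205), Mrpl21 (0.208), Fam96a (0.209) and Slc25a5 (0.211), against a median distance of 0.759. None of these is a receptor or a marker of NK cells, and all were measured in the same libraries, whose repeat shares differ. In the 19 libraries labelled bulk tumour the nearest of 8683 genes were Slbp (0.48), Srgn (0.485), Sdcbp (0.501), Slc3a2 (0.502) and B2m (0.506), against a median of 1.22. Of the receptors themselves, Klra3 lay nearest to their mean profile in the sorted cells (0.387) and Klrg1 farthest (1.105), and Klrg1 was again the farthest in the other set (1.338).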

How the data were processed

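RNA of sorted CD8+ T cells (20 libraries) and of libraries labelled bulk tumour (19) was depleted of ribosomal RNA and made into strand-specific libraries, per the labels' protocols. The authors deposited TPM values, made with kallisto 0.45 on GRCm38 per the submitters' processing notes. The annotation, and how transcripts became genes, is not given in the sources used here. The listed genes summed to 956720 to 989078 TPM in the sorted libraries and 970406 to 991092 TPM in the others. TPM holds no counts, so depth and counting error are unknown.

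Groups came from the sample titles. No columns were identical. Each table was fitted by itself with limma 3.58.1 in R 4.3.3 on log2(TPM + 1), with a mean for each of 4 groups, moderation by empirical Bayes and a trend of variance on mean. Tested genes had at least 1 TPM in at least 4 libraries, 12942 sorted and 13326 labelled bulk tumour. P-values were two-sided, adjusted over all tested genes (Benjamini-Hochberg) and called under 0.05, in 7 contrasts per set. The fit was tested on simulated data with known changes.

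The 10 receptor genes and all lists were chosen with earlier results of these data known. The text names all 10 genes, genes called in the lists of function, part of the called marker genes, and the 5 most alike genes of each set, of which 1 is not reported here. Symbols were matched to GENCODE M21 (27787 of 28023) and promoters to RefSeq. Alternatives were a fit of the compared groups only, a pseudocount of 0.1, no filter, a mean of at least 5 TPM, median-ratio scaling, rescaling without repeats and mitochondrial genes, scaling to CD3 transcripts, array weights, summed paralogs, and libraries left out.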

Additional observations from a re-analysis of the deposited data

Results flagged for a closer look

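In 10 of 80 sets of libraries, each a gene in a group, the highest or lowest library stood apart from the others by Dixon's criterion. Its rate of about 1 in 20 by chance holds for independent sets of normally distributed values. The values here are TPM and the sets share libraries, so the count cannot be set against that rate. In the sorted cells, library 20 of CZA+DAV132 with anti-PD-1 was high for Klra3, at 17.3 TPM against 3.82 to 7.36 TPM in the other libraries of its group, and for Klrb1a, at 6.23 TPM against 0.986 to 2.25 TPM. Library 13 of CZA+DAV132 with isotype was high for Klra3, at 49.4 TPM against 23.7 to 28.4 TPM, and for Klrb1c, at 42.1 TPM against 11.5 to 17.7 TPM. In that group library 15 was high for Klrg1, at 15.9 TPM against 1.29 to 3.90 TPM. Library 3 of CZA with isotype was high for Klrb1c, at 56.9 TPM against 13.7 to 25.6 TPM. The NKR-P1 and Ly49 genes were highest together in library 13 and in library 3 of their groups, where Ncr1, an NK cell marker, was highest as well (3.03 TPM in library 13 and 3.502 TPM in library 3). The other NK-defining genes did not all follow. Itga2 was lowest of its group in library 13 and highest in library 3. Fcgr3 was highest in library 13 but not in library 3, and Eomes in library 3 but not in library 13. The part of NK cells in the result was not tested.

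In the libraries labelled bulk tumour, T029 of CZA+DAV132 with anti-PD-1 was high for Klra3, at 26.2 TPM against 2.20 to 8.45 TPM. T027 of CZA+DAV132 with isotype was low for Klrb1c, at 7.24 TPM against 17.2 to 17.8 TPM, and high for Klrg1, at 38.3 TPM against 0.143 to 5.77 TPM. T983 of CZA with isotype was high for Klrg1, at 1.26 TPM against 0 to 0.272 TPM.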

How the results depend on the processing

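No paired analysis was possible because no replicate number is shared between groups of a set. Of 407 counts of receptor genes called under an alternative, 387 were within 1.5 times the reported count. Comparisons reported with 0 calls make up most of them, so the total says little of the 8 calls in the CZA+DAV132 arm of the sorted cells. Of 699 fold changes of receptor genes called in at least 1 setting, 630 kept direction and call, 42 lost the call, 27 gained it and 0 reversed. Klrg1 and, in the average, Klrc1 were called in no fit of their anti-PD-1 contrasts and crossed 0 under some scalings.

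In the sorted cells, the 8 genes lower with anti-PD-1 in the CZA+DAV132 arm became 5 with only the groups compared, no filter, median-ratio scaling, rescaling without repeats and mitochondrial genes, scaling to CD3 transcripts or array weights, 4 without libraries 16 and 19, and 5 to 9 with single libraries left out (5 without 11, 12, 13, 15, 16 or 19). CZA+DAV132 against CZA under anti-PD-1 had 4 with a mean of at least 5 TPM and 0 to 8 with single libraries left out. The averaged contrast had 3 with paralogs summed, where sums replace 3 of the 5 called genes. In the libraries labelled bulk tumour, leaving out single libraries gave 0 to 1 for anti-PD-1 in the CZA arm and 0 to 1 for the average, the 1 being Klra1 without T983.

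Over all genes of the sorted set, 533 were higher and 2509 lower with anti-PD-1 in the CZA+DAV132 arm. The split was 427 and 854 with only the groups compared, 282 and 1422 without filter, 1470 and 1828 with median-ratio scaling, 1845 and 1065 rescaled, 1104 and 1046 scaled to CD3, 1282 and 2185 with array weights, and 536 and 656 without libraries 16 and 19. The median of all genes, -0.34, was 0.109 when rescaled and -0.003 under median-ratio scaling. In the average it was 273 higher and 1394 lower, against 25 and 161 without filter, 1263 and 1712 with median-ratio scaling, 1198 and 1858 with array weights and 918 and 1044 without libraries 16 and 19. Under anti-PD-1, CZA+DAV132 against CZA gave 0 higher and 5 lower, against 44 and 1321 with a mean of at least 5 TPM, 64 and 477 with array weights and 34 and 2172 without library 18. In the libraries labelled bulk tumour, the average had 123 and 170 with median-ratio scaling and 0 and 0 without filter, anti-PD-1 in the CZA arm had 37 and 1 (96 and 1 with a pseudocount of 0.1), and in the CZA+DAV132 arm 4 and 28 (132 and 176 with array weights). The causes of these shifts were not tested. Depth is unknown, and low TPM such as those of Klrg1, Klra9 and Klrb1a are the least certain.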
